A study of Mus musculus with 34 samples.

Results

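The transcripts of β-catenin, of its kinase Gsk3b, of the TCF/LEF transcription factors and of Wnt target genes were followed in J1 mESCs. These are mouse embryonic stem cells that need the cytokine LIF to stay undifferentiated in serum. The 10 genes were listed by name as Ctnnb1, Gsk3b, Axin2, Lef1, Tcf7, Tcf7l1, Tcf7l2, Sp5, Nkd1 and Notum, and all 10 were found among the 23366 rows of the deposited RNA-seq table. A total of 4 RNA-seq libraries were compared, 2 from cells grown without LIF (serum/-LIF) and 2 from cells grown without LIF but with purified Royalactin, a honey bee royal jelly protein, at 0.5 mg/ml (serum/-LIF + Royalactin). Both groups were of the same line, without a genetic change, in the same serum medium on gelatin, at passage 40 by the sample labels, whereas the study's text gives another passage for this RNA-seq. The series describes its replicates as biological. The series lists no serum/+LIF RNA-seq library, and its ATAC-seq libraries were not analysed here.

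In canonical Wnt signalling, a cytoplasmic complex built on Axin and Apc lets the kinase Gsk3b mark β-catenin for degradation. When a Wnt ligand is bound this complex is held back, and β-catenin enters the nucleus to bind TCF/LEF factors on DNA. In mESCs, Tcf7l1 is known mainly as a repressor of pluripotency genes that β-catenin relieves, which is why an inhibitor of GSK3 is one of the components of 2i medium. RNA levels do not show the amount or location of β-catenin protein.

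The values are read counts per gene divided by one size factor per library, called normalized counts here. The libraries held from 14737796 to 17597818 reads assigned to genes. Rn45s, the precursor of ribosomal RNA, made up 46.6% and 38.4% of them in replicate 1 of serum/-LIF and of serum/-LIF + Royalactin, and 21.6% and 9.08% in the respective replicate 2. Of the 12 listed mESC markers all were detected, with summed normalized counts of 36282 and 39140 in serum/-LIF and 44747 and 51871 with Royalactin. By contrast, 12 fibroblast markers summed to between 69.5 and 164, with Postn, Pdgfrb, Fap and S100a4 at 0 in all 4 libraries. The other summed marker levels in serum/-LIF and in serum/-LIF + Royalactin were, respectively, 190.5 to 354 and 149 to 200.2 for primitive streak and mesoderm (10 genes, Tbx6, Msgn1 and Foxf1 at 0), 346 to 407 and 236 to 328 for endoderm (10 genes, Cer1 at 0), 2545 to 2861 and 1815 to 1911 for neuroectoderm (10 genes, Neurog2 at 0), and 1820.1 to 1863 and 583 to 974 for trophoblast (10 genes, Elf5 at 0). The sums rest on a few abundant genes, and their tested members went both ways, with 4 higher and 3 lower in mean for neuroectoderm, 3 and 2 for endoderm and 3 and 3 for trophoblast. Nes had 1489.8 and 1099 normalized counts in serum/-LIF and 334 and 326 with Royalactin, for example, whereas Pax6 had 93.6 and 79.7 against 172 and 171. In the trophoblast list, Krt8 had 883 and 897 in serum/-LIF against 104 and 297 with Royalactin. Krt18 had 732 and 731 against 111 and 227, whereas Tfap2c had 37.4 and 104 against 214 and 310. By an adjusted p under 0.05 (limma, described below), 2 trophoblast genes and 1 neuroectoderm gene were lower with Royalactin, against 0.162% of all tested genes. No gene of the other lineage or fibroblast lists passed, and none in these lists passed as higher. Of the mESC markers, 10 were higher in mean and 2 lower, and 3 passed as higher, against 0.331% of all tested genes. The part of these markers in the Wnt gene values was not tested. In bulk RNA, fewer cells of a type and less RNA per cell cannot be told apart.

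The 4 TCF/LEF paralogs share their DNA-binding HMG box, so the stretch of 75 coding bases in which they are most alike is shown to let a reader see how far reads of this length can tell them apart. Sequences are from the GENCODE transcripts of mm9, 5′ to 3′, and capitals mark the 50 positions identical in all 4.

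Lef1: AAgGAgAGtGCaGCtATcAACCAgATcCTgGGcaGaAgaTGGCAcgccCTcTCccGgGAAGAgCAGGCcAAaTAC

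Tcf7: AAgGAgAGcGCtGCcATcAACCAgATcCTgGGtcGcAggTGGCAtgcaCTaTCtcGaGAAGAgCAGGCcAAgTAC

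Tcf7l1: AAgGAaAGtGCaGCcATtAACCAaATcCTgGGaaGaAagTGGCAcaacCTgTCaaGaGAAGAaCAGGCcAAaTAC

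Tcf7l2: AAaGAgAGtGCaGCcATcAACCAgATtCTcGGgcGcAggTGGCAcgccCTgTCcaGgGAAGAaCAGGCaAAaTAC

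Over this window Lef1 differed from Tcf7 at 13 positions, from Tcf7l1 at 14 and from Tcf7l2 at 12. The alignment of the reads allowed 2 mismatches. Across whole coding sequences, the longest identical run of any pair was 23 bases, between Lef1 and Tcf7l1 and between Tcf7l1 and Tcf7l2. When exons were cut into 75-base tiles, 3 of 317 tiles of Lef1 (0.946%) and 3 of 79 of Sp5 (3.80%) also aligned elsewhere in mm9 when 2 mismatches were allowed. No tile of the other 8 genes did.

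To show whether TCF motifs lie just before the start of Wnt targets, the 250 bases before the RefSeq start are printed for 3 of them (GRCm38.p6, plus strand for all 3). Sp5 encodes a zinc finger factor and Axin2 a scaffold of the destruction complex, and both are classical targets, as is Lef1. Capitals mark the TCF motif CTTTGAT with its variants, which are CTTTGTT or CTTTGAA or else CTTTGTA, along with the GC box, searched as GGGCGGG and bound by Sp factors, on either strand. The first listed start of Lef1 is used.

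Sp5, chr2:70474673-70474922: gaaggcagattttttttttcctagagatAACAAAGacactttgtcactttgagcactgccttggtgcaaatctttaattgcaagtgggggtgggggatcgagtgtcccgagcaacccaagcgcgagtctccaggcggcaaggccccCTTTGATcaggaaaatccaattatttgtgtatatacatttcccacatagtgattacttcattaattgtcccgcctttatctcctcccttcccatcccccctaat

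Axin2, chr11:108920099-108920348: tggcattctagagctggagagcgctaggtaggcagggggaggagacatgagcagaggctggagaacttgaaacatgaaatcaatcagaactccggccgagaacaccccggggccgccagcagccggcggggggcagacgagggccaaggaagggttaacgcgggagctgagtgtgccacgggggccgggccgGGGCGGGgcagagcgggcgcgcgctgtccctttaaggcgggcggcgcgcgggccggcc

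Lef1, chr3:131110047-131110296: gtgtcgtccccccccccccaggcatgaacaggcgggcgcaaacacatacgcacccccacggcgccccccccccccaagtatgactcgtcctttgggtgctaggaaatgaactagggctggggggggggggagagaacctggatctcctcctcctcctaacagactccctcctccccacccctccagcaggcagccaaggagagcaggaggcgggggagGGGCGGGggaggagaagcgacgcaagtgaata

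The Sp5 promoter held CTTTGAT at position -104 from its start and CTTTGTT, on the other strand, at -222. CTTTGAT occurs in 3.73% and CTTTGTT in 5.85% of all 32851 RefSeq promoter windows of 300 bases. Any of the 4 TCF motifs occurs in 16.9% of windows and was in 3 of the 15 windows of the 9 genes with an entry, namely in 1 each of Sp5, Lef1 and Tcf7l2. The Lef1 motif, CTTTGTA at -147 on the other strand, belongs to another start than the one printed, whose capitals mark a GC box. The GC box was in 9 of the 15 windows, from Ctnnb1, Tcf7, Axin2, Lef1 and Tcf7l2, against 25.6% of all windows. Windows of the same gene can overlap, as for Lef1 and Ctnnb1, so the same box can be counted more than once. Of the 3 printed sequences, that of Sp5 alone holds a TCF motif, and the capitals in those of Axin2 and Lef1 mark a GC box only. No motif overlapped another of these names in the 3 printed sequences. Notum has no entry.

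Expression of the 10 genes was compared on log2(normalized count + 1) with limma, in one fit over 12993 genes. These had 10 or more normalized counts on average over the 4 libraries, as did all 10 genes. This scale understates the change of weakly expressed genes. Of all tested genes, 0.493% had an adjusted p-value under 0.05. None of the 10 genes did (limma, Benjamini-Hochberg adjustment), and 1 of the 10, Notum, had an unadjusted p-value under 0.05. By a p-value of 0.05 with a fold change of 2, the limits of the study, applied here to unadjusted p-values, 7.13% of all tested genes (3.52% as higher) and 1 of the 10, as higher, were selected. Means were higher with Royalactin for 7 of the 10 genes, with a median log2 fold change of 0.26, against 6414 of 12993 and a median of -0.01 for all tested genes. For 9 of the 10 genes, the difference between conditions was smaller than the gap between the replicates of at least one condition. For all tested genes this share was not computed. Their median absolute log2 difference was 0.40 between conditions, 0.57 between serum/-LIF replicates and 0.39 between Royalactin replicates.

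**Figure D1:**
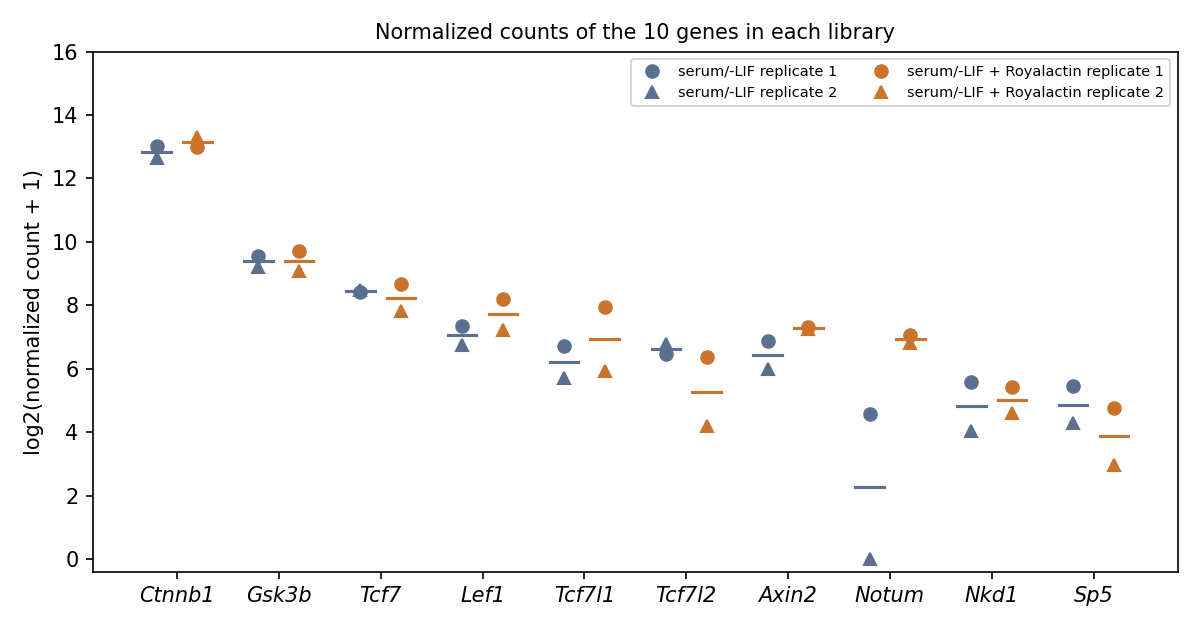
Normalized counts of the 10 genes in each library, as log2(normalized count + 1), with circles for replicate 1, triangles for replicate 2 and bars for the mean of the 2 log2 values. Ctnnb1 lies far above the others, Notum is at 0 in serum/-LIF replicate 2, and the 2 libraries of a condition lie wide apart for Tcf7l1 and Tcf7l2 with Royalactin.

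Ctnnb1, which encodes β-catenin, was the most abundant of the 10 transcripts (chromosome 9, 120838334 to 120869625 of mm9). Its normalized counts were 8325 and 6420.4 in serum/-LIF and 8098 and 10049.8 in serum/-LIF + Royalactin. The 2 conditions overlapped, since Royalactin replicate 1 lay below serum/-LIF replicate 1. The means were 7373 ± 1347 and 9074 ± 1380.1 (SD, n = 2), a log2 fold change of 0.30 with a 95% interval from -0.38 to 0.99 (limma adjusted p = 0.827, Benjamini-Hochberg). This interval leaves out a 2-fold change in either direction, but its upper limit is only just under a 2-fold rise. The standard error was 0.319 in this fit and 0.356 without the trend, and intervals of other settings are not given here. Exons of Ulk4 on the opposite strand cover 4.71% of Ctnnb1 exon bases, and the strand setting of the counting was not given in the sources used here.

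Gsk3b encodes the kinase that marks β-catenin for degradation (chromosome 16, 38089087 to 38246170). It had 759.6 and 592 normalized counts in serum/-LIF and 832 and 543 in serum/-LIF + Royalactin, so that the Royalactin libraries lay on either side of the serum/-LIF pair. The log2 fold change was 0.00 (95% interval -0.73 to 0.74; limma adjusted p = 0.999, Benjamini-Hochberg). A change of 2-fold was outside this interval too. The standard error was 0.342 in this fit and 0.398 without the trend.

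The TCF/LEF factors bind the same DNA motif and differ in how strongly they activate or repress. Tcf7 was the most abundant of the 4 (chromosome 11, 52065873 to 52096681), with normalized counts of 344 and 360.2 in serum/-LIF and 406 and 225 in serum/-LIF + Royalactin. Here the serum/-LIF replicates nearly coincided, whereas the Royalactin replicates lay above and below them. Its log2 fold change was -0.22 (95% interval -1.08 to 0.64; limma adjusted p = 0.907).

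Lef1, both a Wnt effector and a Wnt target (chromosome 3, 130813389 to 130927274), had 162 and 108 normalized counts in serum/-LIF and 296 and 148 with Royalactin. Only replicate 1 with Royalactin exceeded both serum/-LIF libraries. A log2 fold change of 0.66 was obtained (95% interval -0.41 to 1.74; limma adjusted p = 0.738).

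For Tcf7l1, the repressor (chromosome 6, 72576372 to 72739248), 104 and 51.8 normalized counts were found in serum/-LIF and 244 and 60.6 in serum/-LIF + Royalactin. The higher mean with Royalactin came from replicate 1, which was 1.99 above replicate 2 on the log2 scale, and replicate 2 lay within the serum/-LIF range. The log2 fold change was 0.72 (95% interval -0.78 to 2.22; limma adjusted p = 0.807). It was -0.28 without Royalactin replicate 1, a reversal of direction.

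Tcf7l2 (chromosome 19, 55816300 to 56008144) was the one gene of the 10 with both Royalactin libraries below both serum/-LIF libraries, at 88.3 and 109 normalized counts in serum/-LIF and 81.5 and 17.2 with Royalactin. An order without overlap was seen in this direction for 18.9% of all tested genes, and in either direction for 38.6%. Royalactin replicate 1 was close to the serum/-LIF libraries, and only replicate 2 was far below, with 25 reads counted. The log2 fold change of -1.35 (95% interval -3.03 to 0.32) did not pass the threshold (limma adjusted p = 0.644). Without Royalactin replicate 2 it was -0.26 (limma adjusted p = 0.985), and without Royalactin replicate 1 it was -2.44, with an unadjusted limma p of 0.036 and an adjusted p of 1.00.

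**Figure D2:**
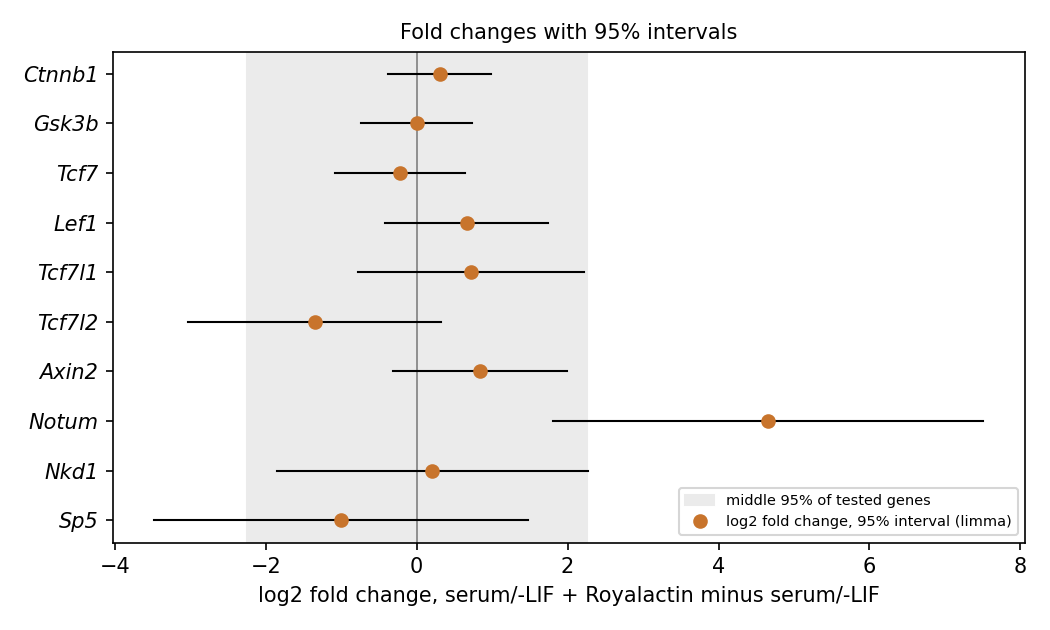
Log2 fold change between serum/-LIF + Royalactin and serum/-LIF for each gene (points), with the 95% interval from limma (lines), over the range that holds the middle 95% of all tested genes (grey, -2.25 to 2.25). The interval of Notum alone lies wholly on one side of 0, and those of Ctnnb1 and Gsk3b are the narrowest.

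The make-up of the TCF/LEF family was compared on normalized counts per kb of exon, since the genes differ in length. Tcf7 took 67.2% and 76.1% of the 4-gene sum in the serum/-LIF libraries and 55.4% and 68.4% in the Royalactin libraries. Tcf7l1 followed with 17.1% and 9.19% in serum/-LIF and 28.0% and 15.5% with Royalactin. The share of Lef1 was 10.2% and 7.34% in serum/-LIF and 13.0% and 14.5% with Royalactin, and that of Tcf7l2 was 5.51% and 7.33% against 3.55% and 1.67%. Thus Lef1 was above both serum/-LIF shares and Tcf7l2 below both in each Royalactin library, while the ranges of Tcf7 and Tcf7l1 overlapped. In normalized counts, 38.6% of all tested genes had groups apart in either direction, and those of Lef1 itself overlapped. Shares of a common sum also depend on each other, and no test was run on them. The union of all annotated exons was taken as length, which overstates the length of a gene with many transcripts such as Tcf7l2, with 24 annotated.

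**Figure D3:**
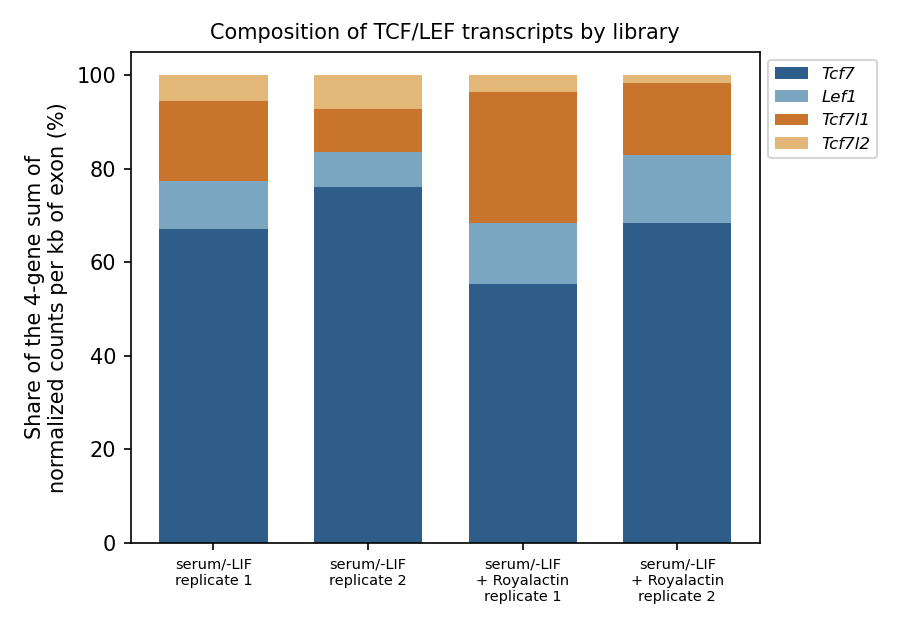
Share of each TCF/LEF gene in the sum of normalized counts per kb of exon, as stacked bars for the 4 libraries. Tcf7 makes up 55.4% to 76.1% of the sum in every library, and Tcf7l2 has its lowest share, 1.67%, in Royalactin replicate 2.

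Ratios of 2 genes within a library do not depend on its size factor apart from the added count of 1. The log2 ratio of Tcf7l1 to Tcf7l2 was 0.24 and -1.06 in serum/-LIF and 1.57 and 1.76 in serum/-LIF + Royalactin, a difference of 2.07. This was the largest difference among the 4 ratios examined, with the groups apart and an exact permutation p of 0.333, which is the smallest that 2 against 2 libraries can give. For Tcf7l1 to Tcf7 the groups overlapped, at -1.71 and -2.78 against -0.73 and -1.88 (exact permutation p = 0.667). The ratio of Tcf7l1 to Lef1 was -0.63 and -1.04 against -0.27 and -1.27 (exact permutation p = 1). Axin2 to Ctnnb1 stood at -6.15 and -6.65 in serum/-LIF and at -5.68 and -6.04 with Royalactin (exact permutation p = 0.333). Over these 4 tests, no p-value could pass 0.05 before any adjustment.

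Axin2 and Notum, both feedback inhibitors of the pathway, were the 2 genes of the 10 with both Royalactin libraries above both serum/-LIF libraries, as were 19.7% of all tested genes. Axin2 (chromosome 11, 108781663 to 108812097) had 116 and 63.1 normalized counts in serum/-LIF and 157 and 152 with Royalactin. The Royalactin replicates were nearly equal, and serum/-LIF replicate 2 was far below the other 3 libraries. Its log2 fold change of 0.84 (95% interval -0.31 to 2.00) did not pass the threshold (limma adjusted p = 0.680). When serum/-LIF replicate 1 was left out it was 1.28, with an unadjusted limma p of 0.043 and an adjusted p of 0.248, and when serum/-LIF replicate 2 was left out it was 0.41.

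Notum encodes a secreted enzyme that inactivates Wnt ligands by removing their lipid (chromosome 11, 120515102 to 120522489). In serum/-LIF, 22.7 and 0 normalized counts were found, from 17 and 0 reads, and in serum/-LIF + Royalactin 134 and 111, from 133 and 161 reads. Counting error gives the 17 reads an exact Poisson 95% interval of 9.90 to 27.2 reads, and for 0 reads this interval runs up to 3.69. Neither limit covers more than counting error, since PCR duplicates are counted as reads. Both Royalactin libraries were thus well above both serum/-LIF libraries, and the latter differed from each other by 4.57 on the log2 scale. The means were 11.4 ± 16.1 and 122 ± 16.2 (SD, n = 2). The log2 fold change was 4.66 (95% interval 1.80 to 7.51), with an unadjusted limma p of 0.0036 and an adjusted p of 0.2 (Benjamini-Hochberg). The fold change depended on the count added before the logarithm, from 3.43 with 5 to 6.33 with 0.1. It was 2.37 without serum/-LIF replicate 2 and 6.94 without serum/-LIF replicate 1, and the unadjusted limma p was above 0.05 without Royalactin replicate 1 (0.085) and without Royalactin replicate 2 (0.0696). The adjusted p ranged from 0.0017 to 0.543 over the settings that kept all 4 libraries. Exons of 4732444A12Rik on the opposite strand cover 29.4% of Notum exon bases and those of Gm11768 cover 8.72%, and neither symbol is a row of the table.

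Nkd1, an inhibitor that acts on Dishevelled (chromosome 8, 91045243 to 91118786), was weakly expressed, with 46.8 and 15.5 normalized counts in serum/-LIF and 42.2 and 23.4 in serum/-LIF + Royalactin. Both Royalactin libraries lay within the range of the serum/-LIF pair. The log2 fold change was 0.21 (95% interval -1.85 to 2.27; limma adjusted p = 0.966), so changes of 2-fold in either direction were within its error.

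Sp5 (chromosome 2, 70312980 to 70315786), whose promoter is printed above with its TCF motifs, had 42.8 and 18.6 normalized counts in serum/-LIF and 26.2 and 6.88 with Royalactin. Between 10 and 32 reads were counted per library. The groups overlapped, and the mean was lower with Royalactin, unlike those of Axin2, Notum, Nkd1 and Lef1. Its log2 fold change was -1.0 (95% interval -3.48 to 1.47; limma adjusted p = 0.841). It was -1.90 without Royalactin replicate 1 and -0.11 without Royalactin replicate 2.

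The order of levels per kb of exon, as means of the 4 libraries, ran from Ctnnb1 (1613 normalized counts per kb) through Tcf7 (119.7), Gsk3b (69.3), Tcf7l1 (34.7), Notum (27.8), Axin2 (22.2), Lef1 (20.6), Sp5 (11.2) and Tcf7l2 (8.46) to Nkd1 (7.18). Ctnnb1 was 13.5 times the next gene and did not overlap it in any library. Below Ctnnb1, each pair of neighbours in this order overlapped in range over the 4 libraries.

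Replicate 1 was above replicate 2 in both conditions for 7 of the 10 genes, namely Gsk3b, Axin2, Lef1, Tcf7l1, Sp5, Nkd1 and Notum, compared with 28.1% of all tested genes. The opposite order in both conditions was seen for none of the 10 and for 26.5% of all tested genes. The share of reads taken by Rn45s was also higher in both replicate 1 libraries, and its part in these values was not tested.

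**Figure D4:**
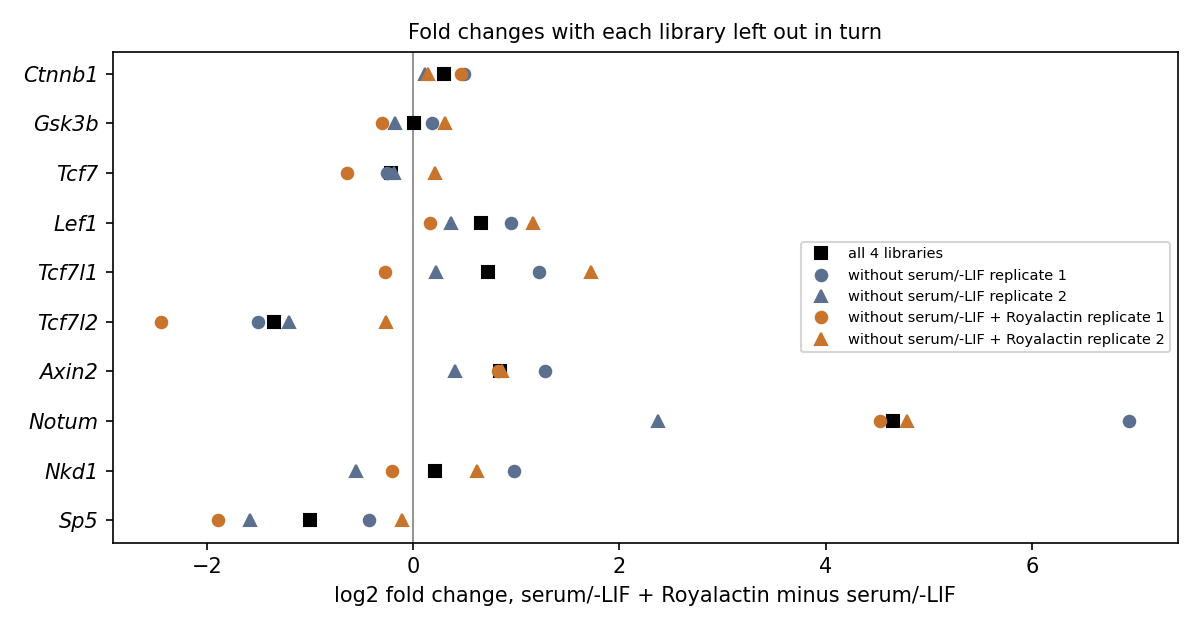
Log2 fold change of each gene with all 4 libraries (squares) and after removal of a single library (blue, a serum/-LIF library left out; orange, a Royalactin library; circles, replicate 1; triangles, replicate 2). Gsk3b, Tcf7, Tcf7l1 and Nkd1 fall on both sides of 0, and Notum stays between 2.37 and 6.94.

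Among the 3 genes with the profile over the 4 libraries nearest to that of Notum, by Euclidean distance of centred log2 values among all tested genes, were Scn3a (0.683) and Cyp1b1 (0.854). Scn3a, a sodium channel subunit, had 40.1 and 0 normalized counts in serum/-LIF and 127 and 136 with Royalactin, and Cyp1b1, a cytochrome P450 enzyme, 14.7 and 0 against 84.5 and 47.5. Both had serum/-LIF replicate 2 lowest, which follows from their choice by likeness to Notum. Neither passed the threshold (limma adjusted p = 0.27 and 0.375). Nearest to Tcf7l2, which had the lowest fold change of the 10, were Thsd4 (0.162), Srsf12 (0.212) and Dsc2 (0.275). Dsc2, a desmosomal cadherin, had 77.6 and 105 normalized counts in serum/-LIF and 92.5 and 15.8 with Royalactin. Its low Royalactin replicate 2 likewise follows from the choice by likeness to Tcf7l2.

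Other genes of the pathway were described in lists of known function. In the destruction complex and its upstream regulators, 0 of 24 tested genes passed an adjusted p of 0.05 in limma and 0 passed the 2-fold rule, with a median log2 fold change of 0.00. The gene with the largest difference there was Dvl3, a Dishevelled protein, at 143 and 8.28 normalized counts in serum/-LIF and 104 and 66.1 with Royalactin (log2 fold change 1.20, limma adjusted p = 0.778). Its serum/-LIF replicates were farther apart than the conditions, and the direction turned to -0.78 without serum/-LIF replicate 2.

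Among nuclear cofactors and repressors of β-catenin, 0 of 22 tested genes passed the adjusted p and 1 was selected by the 2-fold rule. This was Tle4, a Groucho corepressor that TCF factors recruit, with 1264 and 1015 normalized counts in serum/-LIF and 2620.2 and 1965 in serum/-LIF + Royalactin. The groups did not overlap, and the log2 fold change was 1.00 (95% interval 0.35 to 1.65; limma adjusted p = 0.237). Over the alternatives with all 4 libraries its adjusted p ran from 0.00034 to 0.560, passing the threshold with the replicate block, after values were corrected for GC content and length, and with both, and with a library left out it was 0.192 to 1.00. In the list of cell adhesion partners of β-catenin, 0 of 12 tested genes passed either rule. Vcl, the gene for vinculin, differed most, with 2599.8 and 1971 normalized counts in serum/-LIF and 1362 and 1111 with Royalactin (log2 fold change -0.88, 95% interval -1.53 to -0.23; limma adjusted p = 0.334). Its adjusted p ran from 0.00018 to 0.613 over the same alternatives, passing with that correction and with both, and from 0.263 to 1.00 with a library left out.

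Of 21 tested genes in the list of other Wnt targets, 0 passed the adjusted p, 5 were selected by the 2-fold rule as lower with Royalactin and 0 as higher, where 3.61% of all tested genes were selected as lower. The median log2 fold change of the list was -0.41. Cdx4, a homeobox gene of the posterior embryo, had 24.1 and 51.8 normalized counts in serum/-LIF, from 18 and 50 reads, and 0 in both Royalactin libraries. Set against a floor of 3 reads in a library, it was at least 12.6-fold lower with Royalactin (limma adjusted p = 0.413), or at least 7.98-fold lower than serum/-LIF replicate 1 alone. The other 4, named after their values were seen, were Fgf8, Sp8, Jun and Tnfrsf19. Sp8, a relative of Sp5, had 207 and 123 normalized counts in serum/-LIF and 40.2 and 57.1 with Royalactin, and Fgf8, a growth factor of the primitive streak, had 156 and 66.2 against 19.1 and 33.04. Jun, a subunit of the factor AP-1, had 595 and 404 against 211 and 226, and Tnfrsf19, a receptor of the TNF family, 267 and 396 against 117 and 176. Dkk1, a secreted Wnt inhibitor also singled out after its values were seen, was below the limit for testing. It had 37 and 3 reads with Royalactin and none in serum/-LIF.

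Of 8 naive pluripotency genes known as targets that Tcf7l1 represses in mESCs, 5 rose with an adjusted p under 0.05 (limma, Benjamini-Hochberg), against 0.331% of all tested genes that passed as higher. These were Esrrb, Tfcp2l1, Nr5a2, Tcl1 and Nr0b1, and the median log2 fold change of the 8 was 2.87. Nr0b1, a nuclear receptor of the pluripotency network, went from 129.7 and 129.4 normalized counts in serum/-LIF to 844 and 1059 in serum/-LIF + Royalactin. Esrrb, an orphan receptor that activates naive genes, had 233 and 181 against 1641 and 1389.8, Tfcp2l1, a factor of the same network, 185 and 143 against 1560.1 and 1262, Nr5a2, a receptor that activates Pou5f1, 76.2 and 65.2 against 765 and 582, and Tcl1 13.4 and 14.5 against 219 and 198. In all 5 the replicates lay close together and the conditions far apart, which follows from their choice by a low adjusted p. Esrrb, Tfcp2l1 and Nanog were singled out by the study from these samples, so the list is not independent evidence of its direction. Over the same libraries Tcf7l1 itself had overlapping groups, as given above. With any 1 library left out, 1 condition rests on a single library, and the adjusted p in limma could not set genes of the lists apart from other tested genes.

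**Figure D5:**
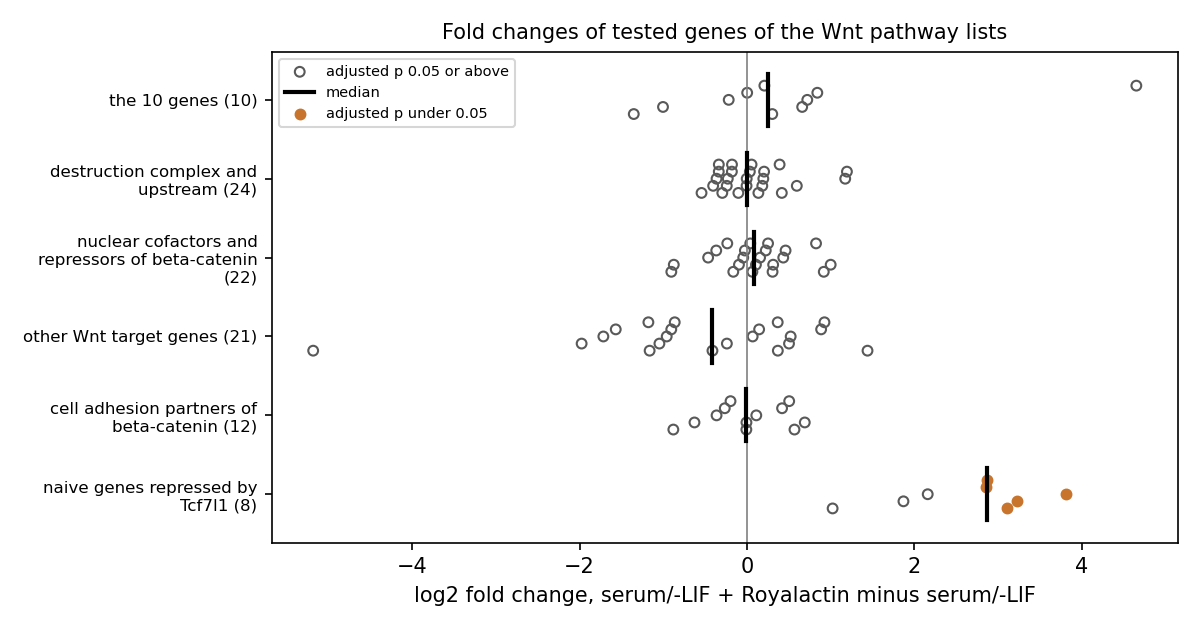
Log2 fold change between serum/-LIF + Royalactin and serum/-LIF of every tested gene of the 10 and of the 5 pathway lists (number of genes in brackets), with bars at the medians and filled points for adjusted p under 0.05. Filled points appear in the list of naive genes alone, and the point farthest to the left is Cdx4.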

How the data were processed

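Of the RNA-seq of J1 mESCs, 2 libraries without LIF and 2 without LIF but with Royalactin were used, with groups and replicate numbers from the sample labels. Ribosomal RNA was depleted, and the authors aligned the reads to mm9 with Tophat, obtained gene counts by HTSeq-count and deposited DESeq-normalized counts, a signal equal to reads divided by a library's size factor. The annotation and strand setting of the counting were not given in the sources used here. All values were within 0.00267 reads of whole multiples of one step per library, and read numbers are values divided by that step. They assume that the smallest value above 0 is 1 read, which for Royalactin replicate 1 could not be checked, because its step lies close to 1. The deposited values are not raw counts, and no count test was run.

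The test was limma 3.58.1 under R 4.3.3 (eBayes with trend, two-sided, Benjamini-Hochberg) on log2(normalized count + 1) for genes with a mean of at least 10. Ratios were tested with exact permutation over libraries. Positions and exon lengths came from GENCODE on mm9, and promoters from RefSeq (GRCm38.p6). Exon tiles of 75 bases, 25 apart, were mapped with minimap2 2.31-r1302.

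The 10 genes, the gene lists and the rules were chosen with earlier results of these data known. Named beyond the 10 genes were, from each list, the genes with an adjusted p under 0.05 or else the gene with the largest difference, and the 3 nearest profiles of the genes with the highest and the lowest fold change, of which 1 is not reported here. Fgf8, Sp8, Jun, Tnfrsf19, Dkk1 and the marker genes given with values were named after their values were seen. Alternatives were other pseudocounts, filters and scalings, no trend, a replicate block and each library left out. A correction for GC content and length (lowess, span 0.3, for 94.6% of tested genes) was added after seeing the data.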

Additional observations from a re-analysis of the deposited data

How the results depend on the processing

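None of the 10 genes passed an adjusted p of 0.05 in limma, and none did under the other pseudocounts, filters and scalings or with the GC and length correction. Without the trend 0 of all tested genes passed, so that setting could not single out any of the 10. With a library left out the adjusted p could not single them out either. With the replicate block 1 passed, Notum (log2 fold change 4.66, adjusted p = 0.0038), and so it did with the block and the GC and length correction together (1 gene, 4.67). Replicate numbers are shared by the groups, but deviations of same-numbered libraries had a correlation of only 0.0851 across genes and no label ties them, so this fit is given as a sensitivity check alone. The number of the 10 genes past the 2-fold rule, 1 as reported, was 2 with the block and the GC and length correction (Notum and Tcf7l2), and 0 to 2 with each library left out. With each library left out, the lone library of a condition is assumed to vary like the other 2. Directions then turned for Gsk3b (-0.18 without serum/-LIF replicate 2, -0.30 without Royalactin replicate 1), Tcf7 (0.21 without Royalactin replicate 2), Tcf7l1 (-0.28 without Royalactin replicate 1), Nkd1 (-0.56 without serum/-LIF replicate 2, -0.20 without Royalactin replicate 1) and Dvl3 (-0.78 without serum/-LIF replicate 2), and for no other of the 10 genes. Over the libraries left out, Gsk3b ran from -0.30 to 0.31, Tcf7 from -0.64 to 0.21, Tcf7l1 from -0.28 to 1.72, Lef1 from 0.16 to 1.16, Sp5 from -1.90 to -0.11, Nkd1 from -0.56 to 0.98 and Dvl3 from -0.78 to 3.17. The cause was not tested.

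Of all tested genes, 64 passed the adjusted p, and 32 did with a pseudocount of 0.1, 34 without a filter, 99 with a mean of at least 50, 391 with the replicate block, 247 with the GC and length correction, 787 with both, and 0 without the trend, where 1135 had an unadjusted p under 0.05. With each library left out the number was 0 to 0, where 428 to 2496 had an unadjusted p under 0.05. Those past the 2-fold rule, 927, were 427 (Royalactin replicate 1 removed) to 1925 (serum/-LIF replicate 1 removed). Of the genes in the 5 lists, 5 passed the adjusted p, and 8 did with the block, 9 with the GC and length correction, 15 with both, 0 without the trend and 0 with each library left out. Past the 2-fold rule were 14, and 9 to 16 with each library left out. Scalings moved the log2 differences by at most 0.055. With each library left out, the differences in the log2 ratios ran from 0.37 to 1.51 for Tcf7l1 to Tcf7, from -0.44 to 0.56 for Tcf7l1 to Lef1, from 1.43 to 2.72 for Tcf7l1 to Tcf7l2 and from 0.29 to 0.79 for Axin2 to Ctnnb1. Of the 5 naive genes, Tcl1 alone did not pass with a pseudocount of 0.1 (adjusted p = 0.060) or without a filter (0.114). Sp5, Nkd1 and Notum had at most 35 reads in a serum/-LIF library.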
